A study of Mus musculus with 9 samples.

Results

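Mgmt, Tyms, Tymp, Dpyd, Tk1, Rrm1, Rrm2, Dut and Umps encode enzymes that are the targets of, or that handle, fluoropyrimidines and temozolomide, drugs used in pancreatic neuroendocrine tumors (PanNETs). The 9 genes were chosen by name for that role, with earlier results of these data known, and each matched 1 row among the 54347 genes listed. The levels were read in mouse PanNETs and in normal mouse islets. INS-p25OE mice carry an Ins2-rtTA transgene, which is active in beta cells, and a tetOp-p25GFP transgene, so that doxycycline in the drinking water switches on p25, an aberrant activator of the kinase Cdk5. RNA was sequenced from 3 tumors whose titles carry the word Inulin (M1, M2 and M3, called functional in the study), from 3 tumors without it (M4, M5 and M6, called non-functional) and from 3 samples of normal C57BL/6 islets (NI1, NI2 and NI3). All mice had the C57BL/6 background, and M2 was the only library from a female. Offspring of the cross were given doxycycline from weaning, and the paper does not say whether the islet donors received it. Transgene-negative littermates served the study as controls. Ages at collection, and whether an islet sample pooled several animals, are not given in the sources used here. Nothing beyond a general statement of biological replication ties a library to an animal, so the p-values measure the spread between these libraries.

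Fluorouracil is converted in cells to a nucleotide that blocks thymidylate synthase (Tyms), the enzyme that makes dTMP from dUMP. The drug is activated through Umps and Tymp and is broken down by Dpyd, while Tk1, Dut and the ribonucleotide reductase subunits Rrm1 and Rrm2 keep up the supply of deoxynucleotides around that step. Temozolomide methylates guanine in DNA, and Mgmt removes that methyl group.

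Counts are given as CPM, a count relative to the library's total after TMM scaling, which corrects for the share that a few abundant genes take of a library. Library totals lay between 36468280 and 63637175 counts, so 3 counts stood for 0.0424 to 0.119 CPM. In M4, mitochondrial genes held 32.12% of the counts, against 1.756% to 8.409% in the other libraries. Cdk5r1, whose mRNA contains the p25 sequence, stood at 149 to 400 CPM in the 6 tumors, at 18.3 CPM in NI2 and at 12.5 CPM in NI3. In NI1 it stood at 279 CPM, which goes against the islet label, and that library is called the library labelled NI1. Over the 15532 tested genes it was closer to M6 (Pearson's r = 0.988 on the log2 scale) than any of the other 35 pairs of libraries were to each other (0.825 to 0.975). Their counts still differed well beyond sampling noise, with a chi-square of 38.93 per gene, so they were not treated as the same library. The ratio of the library labelled NI1 to M6 was between 0.859 and 1.39 for the 8 members that were tested. The tested members are therefore compared with islets with and without it. The defining beta cell markers were present in all libraries, with a summed level over 7 markers of 17700 to 115599 CPM in tumors, 120753 CPM in the library labelled NI1, 325005 CPM in NI2 and 360500 CPM in NI3. Of the 7 markers, 5 were lower and 2 were higher in the tumor mean than in the islet mean.

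With all 9 libraries, none of the 8 members that passed the filter on low counts was called in tumors against islets (edgeR's quasi-likelihood test, Benjamini-Hochberg adjusted p under 0.05). The same test called 0% of all tested genes up in tumors and 0.258% down. With an unadjusted p under 0.05 as the limit, 4 members were above and 1 was below islets, while 10.7% and 9.14% of all genes passed in these directions. DESeq2 called Tyms and Dut higher and Dpyd lower, where it called 4.92% of all genes higher and 3.14% lower. Without the library labelled NI1, edgeR called 5 of the 8 members higher (Tyms, Dut, Tk1, Rrm1 and Rrm2) and 0 lower, where 5.34% of 15350 genes were called higher and 3.00% lower. With M6 left out as well, 4 stayed past the threshold and Rrm2 did not. The groups did not overlap for Tyms and Dut, which were above all 3 islet libraries in all 6 tumors, and for Dpyd, which was below all of them. Of all tested genes, 4.50% lay above and 3.17% below in the same way. Against NI2 and NI3 alone, all tumors were above for the 5 genes called and below for Dpyd, where 16.6% of all genes lay above and 16.3% below. The median log2 fold change of the 8 members was 1.03 with all libraries and 1.74 without the library labelled NI1, beside 0.03 and 0.05 over all tested genes. In bulk RNA, fewer cells of a type and less RNA per cell cannot be told apart.

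**Figure D1:**
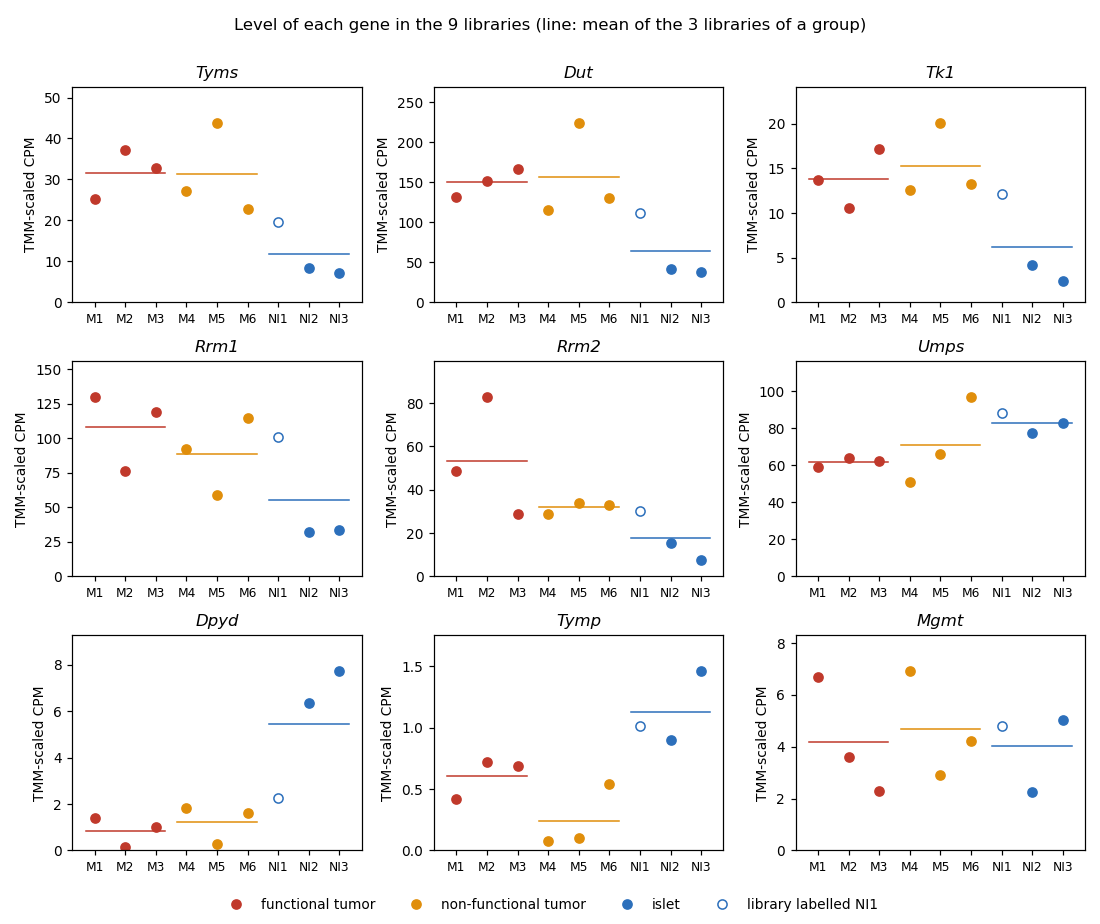
TMM-scaled CPM (vertical axes, from 0) of each of the 9 genes in each library (horizontal axes). Filled points are functional tumors, non-functional tumors and islets by color, the open point is the library labelled NI1, and lines are the means of 3 libraries. For Tyms, Dut, Tk1, Rrm1 and Rrm2 the open point lies near the tumors, while NI2 and NI3 lie below all 6.

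**Figure D2:**
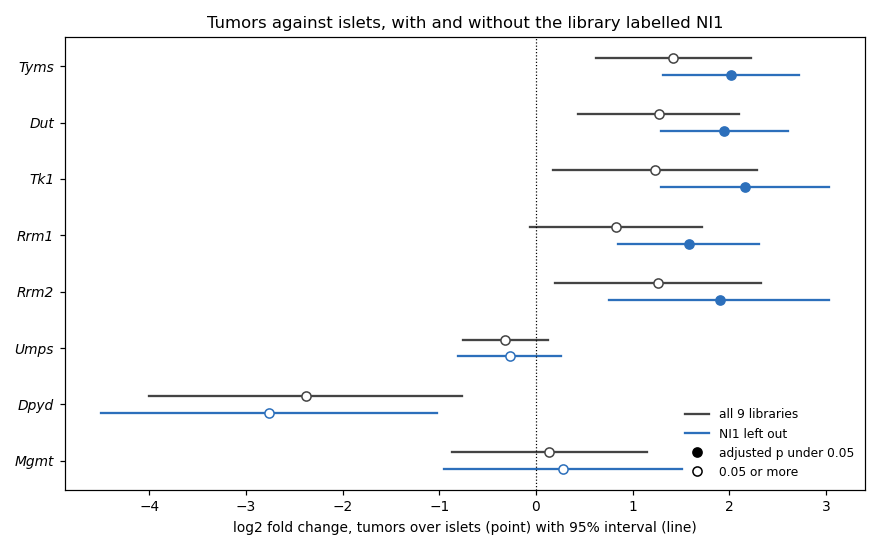
Log2 fold change of tumors over islets (horizontal axis) with its 95% interval for the 8 tested genes, with all 9 libraries and with the library labelled NI1 left out. Filled points have an adjusted p under 0.05, which 5 genes reached without that library and none with it.

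Tyms (ENSMUSG00000025747, chr5:30058202-30073617 of GRCm38, minus strand), the target of fluorouracil, had 25.1, 37.2 and 32.7 CPM in the functional tumors M1 to M3 and 27.2, 43.8 and 22.8 CPM in the non-functional tumors M4 to M6. The islets had 19.6 CPM in the library labelled NI1, 8.28 in NI2 and 7.25 in NI3. All 6 tumors were higher than each islet library, and the lowest tumor, M6, was close to the library labelled NI1. With all libraries edgeR gave a log2 fold change of 1.42 over islets (standard error, SE, 0.36; adjusted p = 0.148). Without the library labelled NI1 it was 2.02 (SE 0.31, adjusted p = 0.00852), a 4.05-fold higher level, and with M6 left out too it was 2.09 (adjusted p = 0.00826). DESeq2 called it with all 9 libraries (adjusted p = 0.0046). Its adjusted p lay between 6.92e-09 and 0.595 over 20 alternatives. A stretch of a long Tyms transcript matches transcripts of many other genes at 95% identity or more over at least 150 bases, so reads from that stretch are uncertain.

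Dut (ENSMUSG00000027203, chr2:125247190-125258608, plus strand) encodes the dUTPase that makes dUMP, the substrate of Tyms, and keeps uracil out of DNA. Its level was 131, 152 and 166 CPM in the functional tumors and 115, 224 and 130 CPM in the non-functional tumors. The library labelled NI1 held 112 CPM, NI2 41.4 CPM and NI3 37.6 CPM. The groups did not overlap, but M4, the lowest tumor, was barely above the library labelled NI1. Tumors over islets gave a log2 fold change of 1.27 (SE 0.37, adjusted p = 0.161), and without the library labelled NI1 it was 1.95 (SE 0.30, adjusted p = 0.00789, 3.87-fold). With M6 also left out it was 1.99 (adjusted p = 0.00992). DESeq2 with all libraries gave an adjusted p of 0.0151. The 20 alternatives gave adjusted p from 3.98e-10 to 0.595.

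Tk1 (ENSMUSG00000025574, chr11:117815526-117826092, minus strand) encodes the cytosolic thymidine kinase, which salvages thymidine to dTMP. It had 13.7, 10.6 and 17.2 CPM in the functional and 12.6, 20.1 and 13.2 CPM in the non-functional tumors. The islet libraries held 12.1 CPM (labelled NI1), 4.16 CPM (NI2) and 2.33 CPM (NI3). M2 was below the library labelled NI1, so the groups overlapped, while all tumors were well above NI2 and NI3. On the log2 scale the tumors were higher by 1.23 (SE 0.48, adjusted p = 0.205) with all libraries and 2.16 (SE 0.39, adjusted p = 0.0142, 4.48-fold) without the library labelled NI1. Leaving out M6 too gave 2.19 (adjusted p = 0.0171). Among 20 alternatives, adjusted p spanned 3.18e-07 to 0.639. Tk1 exons share 83 bases with Afmid on the opposite strand, and reads from there cannot be told apart without strand.

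Rrm1 (ENSMUSG00000030978, chr7:102441695-102469771, plus strand) encodes the large subunit of ribonucleotide reductase, which makes the DNA precursors and binds gemcitabine metabolites. It stood at 130, 76.5 and 119 CPM in the functional tumors and at 92.1, 58.8 and 115 CPM in the non-functional tumors. It was 101 CPM in the library labelled NI1, 32.1 CPM in NI2 and 33.6 CPM in NI3. Only M1, M3 and M6 were above the library labelled NI1, while M5, the lowest tumor, was still above NI2 and NI3. In log2 units the difference was 0.83 (SE 0.40, adjusted p = 0.282) with all libraries, 1.58 (SE 0.32, adjusted p = 0.0225, 2.99-fold) without the library labelled NI1, and 1.53 (adjusted p = 0.0272) without M6 as well. Adjusted p was 3.43e-05 to 0.726 over the 20 alternatives.

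Rrm2 (ENSMUSG00000020649, chr12:24708241-24714146, plus strand) encodes the small subunit, which is made mainly in S phase. Its level was 48.5, 82.8 and 29 CPM in the functional and 28.9, 34 and 32.8 CPM in the non-functional tumors. The library labelled NI1 held 30.4 CPM, NI2 15.3 CPM and NI3 7.59 CPM. M2 was far above all other libraries, and M3 and M4 were slightly below the library labelled NI1. Over islets the log2 fold change came to 1.26 (SE 0.48, adjusted p = 0.201) with all libraries and 1.90 (SE 0.51, adjusted p = 0.04999, 3.72-fold) without the library labelled NI1, at the edge of the threshold. Without M6 as well it was 1.96 (adjusted p = 0.0507), no longer past the threshold. The range of adjusted p over 20 alternatives was 0.000696 to 0.639. The highest count of a gene with a near copy of an Rrm2 transcript stretch was 3.

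In their sum, proliferation markers, too, were highest in the tumors and lowest in NI2 and NI3. The summed level of 10 proliferation markers was 892 to 1676 CPM in tumors, 821 CPM in the library labelled NI1, 243 CPM in NI2 and 133 CPM in NI3. With all libraries edgeR called 0 of the 10 markers. Without the library labelled NI1 it called 9 higher, beside 5.34% of all genes. The geometric mean of the 10 markers was 62 to 122 CPM in tumors and 57.2, 19.5 and 8.91 CPM in the islet libraries in order. The level of each gene was divided by that mean in the same library. On the log2 scale, the mean difference of this ratio, tumors minus islets, was negative for each of the 5 genes, at -0.48 for Tyms and Tk1, -0.60 for Dut, -0.65 for Rrm2 and -1.03 for Rrm1. The 5 ratios share the same divisor, so their common sign is not 5 separate results. That divisor was lowest in NI3, which had the highest ratio of the islet libraries for each of the 5 genes. For Tyms the ratio was -1.92 to -1.14 in tumors and -1.54, -1.23 and -0.30 in the islet libraries, which overlap. For Rrm1 the highest ratio was 1.92 in NI3, against -0.72 to 0.89 in tumors. An exact two-sided permutation test of the ratio over the 9 libraries gave unadjusted p = 0.0476 for Tk1, 0.0714 for Rrm1, 0.119 for Dut, 0.167 for Rrm2 and 0.262 for Tyms, where the smallest p possible is 0.0238 and 5 genes were tested. Without the library labelled NI1 the p-values of the exact permutation test lay between 0.0714 (Tk1), the smallest possible, and 0.214. With NI2 and NI3 alone as islets this test could not give a p under 0.05, so nothing is concluded from it. Adjusted over the 5 genes, p of the permutation test with all 9 libraries was 0.179 to 0.262, so none passed. The test compares ratios only, and whether proliferation accounts for the differences was not tested.

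**Figure D3:**
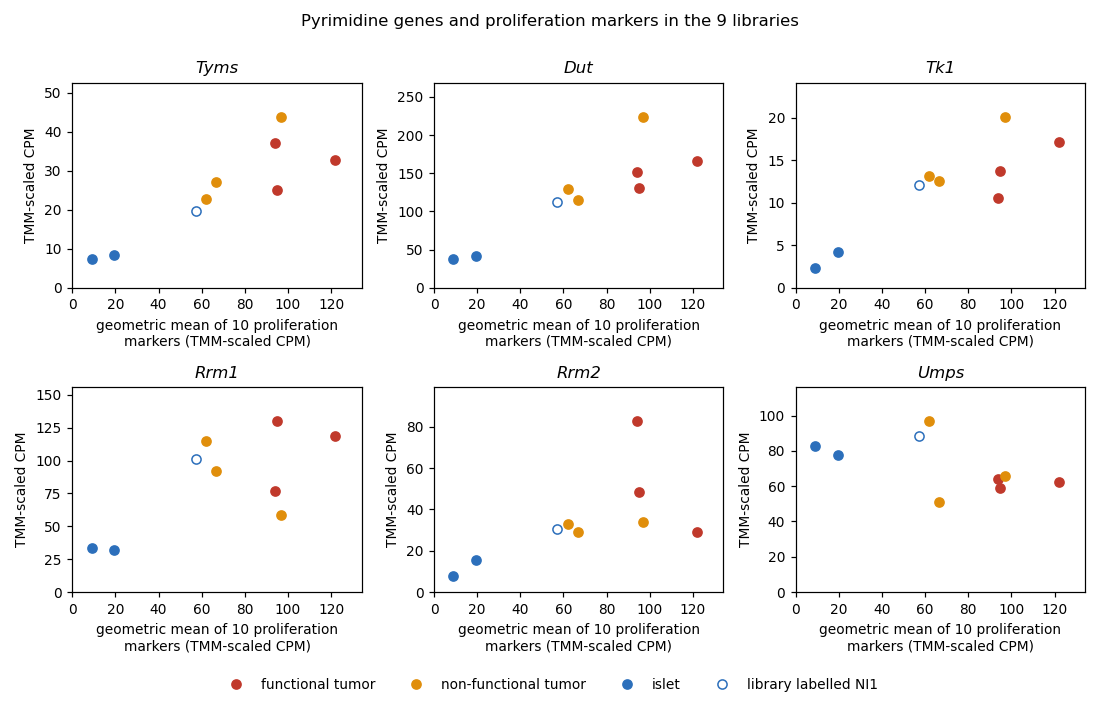
TMM-scaled CPM of 6 genes (vertical axes) against the geometric mean of 10 proliferation markers (horizontal axes) in the 9 libraries. Points are colored by group and the open point is the library labelled NI1. NI2 and NI3 lie lowest on the horizontal axis, and Umps is the gene for which both lie above 5 of the 6 tumors.

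The promoters of Tyms, Rrm1 and Rrm2 are shown from the 5 members that were higher together against NI2 and NI3. The window of Dut lies wholly within the annotated gene, and that of Tk1 reaches further into its gene than those shown. Each run is the 250 bases before the RefSeq start site (GRCm38.p6), 5′ to 3′ on the gene's strand, with CCAAT and GGGCGG on either strand in capitals.
Tyms (chr5:30073626-30073875, minus strand): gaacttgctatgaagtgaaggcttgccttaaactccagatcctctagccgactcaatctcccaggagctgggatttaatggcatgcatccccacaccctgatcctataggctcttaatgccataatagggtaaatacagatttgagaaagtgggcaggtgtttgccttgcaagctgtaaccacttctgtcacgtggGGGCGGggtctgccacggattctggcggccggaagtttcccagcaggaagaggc
Rrm1 (chr7:102441445-102441694, plus strand): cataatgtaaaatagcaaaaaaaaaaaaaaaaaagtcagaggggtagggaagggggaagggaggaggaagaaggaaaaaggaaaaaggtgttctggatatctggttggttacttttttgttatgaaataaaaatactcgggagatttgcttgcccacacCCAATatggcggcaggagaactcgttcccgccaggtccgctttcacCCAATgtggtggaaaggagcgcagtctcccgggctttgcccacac
Rrm2 (chr12:24708004-24708253, plus strand): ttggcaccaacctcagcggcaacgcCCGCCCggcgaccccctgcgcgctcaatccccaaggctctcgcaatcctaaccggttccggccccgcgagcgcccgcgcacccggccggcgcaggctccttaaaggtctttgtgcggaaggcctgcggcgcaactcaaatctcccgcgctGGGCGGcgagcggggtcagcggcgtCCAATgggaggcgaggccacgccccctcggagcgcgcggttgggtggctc
CCAAT, on either strand, occurs 2 times before Rrm1 and 1 time before Rrm2, and is absent from these letters before Tyms. GGGCGG occurs 1 time before Tyms, 2 times before Rrm2 and not before Rrm1. The windows of Dut and Tk1 hold 1 GGGCGG each and no CCAAT, so CCAAT stands in the windows of 2 of the 5 genes. The bases before the annotated start of Dut were not searched. Among all 32851 such windows, 33.8% hold CCAAT and 32.7% hold GGGCGG, against 3 and 7 of the 9 members, and in the runs shown no match overlaps another. The letters TTTNNCGC, searched on both strands as a form of the E2F motif, occur in 4.28% of all windows and in 0 members. These matches are descriptions of letters and not of binding.

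Umps (ENSMUSG00000022814, chr16:33954782-33967038, minus strand) encodes the last enzyme of uridine monophosphate synthesis, which also turns fluorouracil into its nucleotide. It stood at 58.9, 63.8 and 62.6 CPM in the functional tumors and at 50.9, 65.9 and 96.9 CPM in the non-functional tumors. The library labelled NI1 held 88.2 CPM, NI2 77.6 CPM and NI3 82.9 CPM. Every tumor except M6 was below all islet libraries, and M6 was the highest of all 9. Its log2 fold change was -0.32 (95% interval -0.76 to 0.12, adjusted p = 0.394) and -0.27 (95% interval -0.81 to 0.26, adjusted p = 0.498) without the library labelled NI1. With M6 left out too it was -0.41 (adjusted p = 0.191). It shares 213 exon bases with Gm15829 on the opposite strand, a gene with at most 77 counts in any library.

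Dpyd (ENSMUSG00000033308, chr3:118562129-119432924, plus strand) encodes dihydropyrimidine dehydrogenase, which starts the breakdown of uracil, thymine and fluorouracil. It stood at 1.41, 0.141 and 0.998 CPM in the functional and at 1.82, 0.27 and 1.62 CPM in the non-functional tumors. The islet libraries held 2.24 CPM (labelled NI1), 6.33 CPM (NI2) and 7.72 CPM (NI3). All tumors were below all islet libraries, with M2 and M5 the lowest, at 10 and 11 counts. EdgeR gave a log2 fold change of -2.38 (SE 0.73, adjusted p = 0.162) with all libraries, where DESeq2 gave an adjusted p of 0.037. Without the library labelled NI1 it was -2.76 (SE 0.77, adjusted p = 0.058), and without M6 as well -2.93 (adjusted p = 0.0586), so edgeR did not call it in either fit. By alternative (20 in all), adjusted p was between 0.0162 and 0.595.

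Tymp (ENSMUSG00000022615, chr15:89371931-89377039, minus strand) encodes thymidine phosphorylase, which takes part in the activation of capecitabine. It had 21, 51 and 38 counts in the functional tumors, 2, 4 and 31 counts in the non-functional tumors, and 59, 37 and 59 counts in the library labelled NI1, NI2 and NI3. These are 0.0791 to 0.72 CPM in tumors and 0.901 to 1.46 CPM in islets, and the ranges did not overlap. It reached 1 CPM in fewer than 3 libraries and was not tested. A fit without the filter, with all libraries, gave a log2 fold change of -1.33 (95% interval -2.98 to 0.31, adjusted p = 0.425). Its exons share 856 bases with Sco2 on the same strand and 535 bases with Ncaph2 on the opposite strand, so the counts are uncertain.

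RNA of other cell types was read from marker lists, of which edgeR with all libraries called 2 of 7 lymphoid markers and 6 of 8 dissociation response genes lower in tumors and no marker of the other lists. Of all genes, it called 0% higher and 0.258% lower. Without the library labelled NI1 it called 3 of 10 macrophage and 1 of 6 fibroblast markers higher, beside 5.34% of all genes. Lower in that fit were 4 of 6 tested lymphoid markers, 7 of 8 dissociation response genes and 1 alpha or delta cell marker, beside 3.00%. The summed level of 7 lymphoid markers was 18.6 to 115 CPM in tumors and 162 to 196 CPM in islets (162 in the library labelled NI1), with all 7 lower in the tumor mean and Cd3d at 0 in some library. The 10 macrophage markers summed to 469 to 1303 CPM in tumors and 441, 314 and 194 CPM in the library labelled NI1, NI2 and NI3, with all 10 higher in the mean. The 5 acinar markers summed to 0.121 to 146 CPM in tumors and 213, 244 and 3680 CPM in the islet libraries in that order, with Cpa1, Ctrb1 and Cela3b at 0 in some library. With M6 and the library labelled NI1 both left out, edgeR called all 5 acinar markers lower, beside 520 of 15164 genes. The 8 dissociation response genes summed to 53.4 to 111 CPM in tumors and 470, 2338 and 1223 CPM in islets. Fibroblast, endothelial and ductal markers summed to 59.1 to 259, 209 to 558 and 187 to 628 CPM in tumors and to 66.9 to 105, 531 to 567 and 235 to 273 CPM in islets. The 4 alpha and delta cell markers summed to 40.1 to 2764 CPM in tumors, where M2 was the highest, and to 870, 2628 and 16650 CPM in islets. The part of these cells in the levels of Dpyd, Tymp and the other members was not tested.

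Mgmt (ENSMUSG00000054612, chr7:136894614-137130266, plus strand) stood at 6.7, 3.6 and 2.3 CPM in the functional tumors and at 6.92, 2.92 and 4.21 CPM in the non-functional tumors. The islet libraries held 4.79 CPM (labelled NI1), 2.26 CPM (NI2) and 5.02 CPM (NI3). The groups overlapped throughout, and the highest levels were in M1 and M4, of different groups. Tumors over islets had a log2 fold change of 0.14 (95% interval -0.87 to 1.15, adjusted p = 0.894), and 0.28 (95% interval -0.95 to 1.51, adjusted p = 0.779) without the library labelled NI1. The interval spans a fold of 0.548 to 2.22, and a difference within that range remains possible. That range is not a limit of detection, since Tyms, 2.69-fold higher, was not called in the same fit. The sign turned in 3 fits that each left out 1 library. Mgmt has 2 RefSeq start sites, and the 250 bases before the upstream site are shown with CpG, the site of DNA methylation, in capitals.
Mgmt (chr7:136894336-136894585, plus strand): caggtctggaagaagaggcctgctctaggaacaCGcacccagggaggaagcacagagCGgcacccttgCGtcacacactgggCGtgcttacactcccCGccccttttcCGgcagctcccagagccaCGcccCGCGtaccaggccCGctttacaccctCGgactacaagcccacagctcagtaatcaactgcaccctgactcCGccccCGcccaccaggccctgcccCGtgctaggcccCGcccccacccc
This run holds 15 CpG and that before the other start site 2, beside a median of 6 over all windows. DNA methylation was not measured in these libraries.

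Between functional and non-functional tumors edgeR called none of the 8 tested members (0 of 8 at an adjusted p under 0.05, with 0% of all genes called, and 0 of 8 at an unadjusted p under 0.05, where 10.3% of all genes passed). DESeq2 called 0 members, beside 0.715% of all genes. In none of the 8 did the 3 functional tumors stand clear of the 3 non-functional tumors, as 15.0% of all tested genes did. The log2 fold change, functional over non-functional, was 0.02 for Tyms (95% interval -0.90 to 0.94), -0.07 for Dut (-1.03 to 0.89), -0.15 for Tk1 (-1.37 to 1.07) and 0.29 for Rrm1 (-0.75 to 1.32). It was 0.74 for Rrm2 (95% interval -0.38 to 1.87), with M2 the highest, and -0.21 for Umps (-0.72 to 0.31). For Dpyd it was -0.54 (95% interval -2.60 to 1.52) and for Mgmt -0.16 (-1.37 to 1.06). Each interval held 0, and the intervals of Tyms and Dut left room for changes of about 1 log2 unit. Scaling by library totals alone moved the median of all genes to 0.32, and the signs of Mgmt, Tk1, Dut and Umps turned.

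The other genes of the pathways were taken from 6 lists with 54 genes, of which 53 were tested. With all libraries none of the 53 was called, and without the library labelled NI1 10 were higher and 2 were lower, where 5.34% and 3.00% of all genes were called. The share of lower genes was thus near that of all genes. With M6 left out as well, 9 were higher and 2 were lower. The median log2 fold change of the 53 was -0.02 with all libraries and 0.04 without the library labelled NI1, beside 0.03 and 0.05 over all genes. The proliferation markers described above moved in the same direction as the 10 higher genes, and their part was not tested.

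Among 10 genes of thymidylate and folate metabolism, 3 were called higher and 1 lower without the library labelled NI1. Of all genes, 5.34% were called higher and 3.00% lower in that fit. Dtymk, the kinase that acts on dTMP after Tyms, stood at 56 to 94.1 CPM in tumors, at 52 CPM in the library labelled NI1, at 19.2 CPM in NI2 and at 19.6 CPM in NI3. Its log2 fold change was 1.21 (adjusted p = 0.152) with all libraries and 1.85 (adjusted p = 0.00552) without the library labelled NI1. Shmt1, which supplies the folate one-carbon unit, had 1.64 (adjusted p = 0.165) and 2.63 (adjusted p = 0.0113). Ggh, which removes glutamates from folates, was the lower gene, with -1.17 (adjusted p = 0.139) and -1.50 (adjusted p = 0.00448). Dctd, the dCMP deaminase, which was picked after its values were seen, stood at 12.7 CPM in M6 and 10.4 CPM in the library labelled NI1 against 0.365 to 3.72 CPM in the other 7 libraries.

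Without the library labelled NI1, 5.34% of all genes were called higher and 3.00% lower. Upp1, the uridine phosphorylase, was the only gene called in that fit among the 16 tested genes of fluoropyrimidine handling. It stood at 4.11 to 11.7 CPM in tumors, 11.6 CPM in the library labelled NI1, 15 CPM in NI2 and 34 CPM in NI3. Its log2 fold change was -1.38 (adjusted p = 0.156) and -1.66 (adjusted p = 0.0416) without the library labelled NI1. Upp2, a related phosphorylase, had -0.57 (adjusted p = 0.475) and -0.61 (adjusted p = 0.475). The list's median was -0.17 with all libraries and -0.23 without the library labelled NI1. None of the 4 genes of pyrimidine synthesis was called in either fit. Ctps, which makes CTP, had a log2 fold change of 0.49 (adjusted p = 0.292) with all libraries and 0.48 (adjusted p = 0.33) without the library labelled NI1. Dhodh, the mitochondrial dihydroorotate dehydrogenase, had -0.34 (adjusted p = 0.46) and -0.35 (adjusted p = 0.479).

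Among 6 genes of dNTP supply, Dck, the deoxycytidine kinase that activates gemcitabine, was called higher without the library labelled NI1 (log2 fold change 1.94, adjusted p = 0.0169, and 1.28 with all libraries, adjusted p = 0.165). It stood at 60.4 to 72.1 CPM in the functional tumors and 32.5 to 43.3 CPM in the non-functional tumors. Those ranges did not overlap, as was so for 15.0% of all tested genes, and the difference was not called (log2 fold change 0.81, adjusted p = 0.5). Samhd1, which degrades dNTPs, had -0.32 (adjusted p = 0.42) in tumors against islets and -0.46 (adjusted p = 0.247) without the library labelled NI1. Of 6 genes of uracil excision, Ung, the uracil glycosylase, and Mbd4, a thymine and uracil glycosylase, were called higher without the library labelled NI1. In that fit, which also called Dck, 5.34% of all genes were higher. Ung had a log2 fold change of 2.22 (adjusted p = 0.0102) there and 0.93 (adjusted p = 0.358) with all libraries. Mbd4 had 1.74 (adjusted p = 0.0184) and 0.95 (adjusted p = 0.243).

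Of 11 genes of alkylation repair, 4 were called higher without the library labelled NI1, beside 5.34% of all genes. Among the 4 were genes of mismatch repair, the pathway that acts on the mispaired methylguanine left where Mgmt has not acted. Msh6 had a log2 fold change of 0.99 (adjusted p = 0.0435, and 0.0582 with M6 left out too, which ends the call), Pms2 1.06 (adjusted p = 0.032) and the exonuclease Exo1 3.09 (adjusted p = 0.0237). With all libraries Exo1 had 1.67 (adjusted p = 0.233), Pms2 0.70 (adjusted p = 0.191) and Msh6 0.68 (adjusted p = 0.192). Exo1 stood at 5.3 to 13.5 CPM in tumors, 6.66 CPM in the library labelled NI1, 1.78 CPM in NI2 and 0.421 CPM in NI3.

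**Figure D4:**
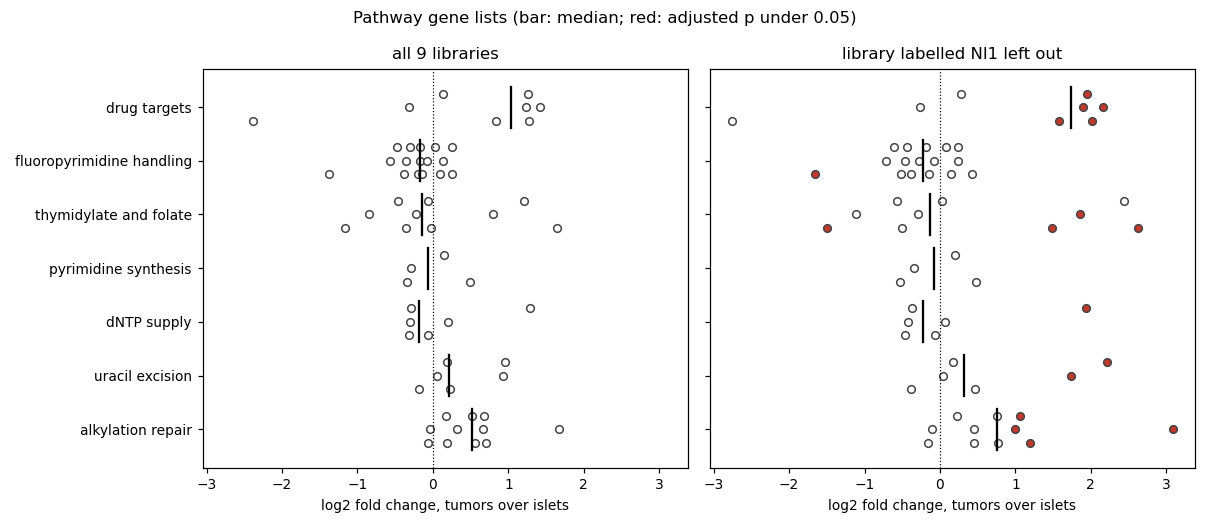
Log2 fold change of tumors over islets (horizontal axes) of the tested genes of each list, with all 9 libraries (left) and with the library labelled NI1 left out (right). Each point is a gene, bars are medians and red points have an adjusted p under 0.05, which 0 genes have on the left and 17 on the right.

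The genes whose log2 levels were most like each member's over the 9 libraries are given by Pearson's r, as a description in which all points share the same libraries and their contrast of NI2 and NI3 with the rest. NI2 and NI3 are the lowest libraries for Tyms, Dut, Tk1, Rrm1 and Rrm2 and the highest for Dpyd. They were Aaas (0.996), Dtymk (0.991) and Unk (0.988) for Tyms, and Ube2t (0.991), Tubb5 (0.988) and Dtymk (0.987) for Dut. Dtymk, the dTMP kinase described above, stood in both lists, Ube2t is a ubiquitin-conjugating enzyme and Tubb5 a beta tubulin. For Tk1 they were Gm20045 (0.989), Cpt1c (0.987) and Zfhx3 (0.985). For Rrm1 they were Gm45250 (0.995), Dcp2 (0.975) and Abl1 (0.974), and for Rrm2 Als2cl (0.979), Tex30 (0.974) and Gm43039 (0.969). Abl1 encodes a tyrosine kinase and Dcp2 an mRNA decapping enzyme. Umps was closest to Pomgnt2 (0.976), Synpr (0.972) and Gm9920 (0.966), and Dpyd to Pip4k2a (0.976), Rap1a (0.976) and Ric8a (0.974). The values for Mgmt (Gm5640 0.943, 1700010I14Rik 0.898 and Clvs1 0.890) and Tymp (Gm10069 0.939, Wtap 0.935 and Tiprl 0.921) were lower.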

How the data were processed

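The authors trimmed single-end reads with Trimmomatic 0.38 and estimated transcript abundance with Salmon 1.4.0 against mm10. The deposited table holds counts per gene as whole numbers. It is named for TPM, but its library totals differ, so the values were read as unscaled counts. The step from transcripts to genes is not given in the sources used here. Symbols and coordinates came from GENCODE for GRCm38, which matched 54094 of 54347 identifiers, and the 253 others held 0.0121% of the counts. Genes at 1 CPM or more in at least 3 of 9 libraries were tested (15532) after TMM scaling in edgeR 4.0.16 (R 4.3.3) by its quasi-likelihood test, two-sided, with Benjamini-Hochberg adjustment over all of them. The 6 tumors were compared with the 3 islet libraries, and the tumor groups in a fit of 3 groups. DESeq2 1.42.0 and limma 3.58.1 were alternatives, beside filters, scalings, a replicate block and fits leaving out libraries. Leaving out M6 with NI1, and DESeq2 without NI1, were added after the data were seen. The edgeR, DESeq2 and limma fits of all 9 libraries were checked on simulated counts with known changes. The simulation gave every gene the same variability and held no library like NI1, so it does not show the power in these data. The members and gene lists were chosen with earlier results of these data known. Named genes of each list were those past the threshold with all libraries or, where none passed, the pair with the largest absolute log2 fold changes, and further ones are those called without the library labelled NI1. Some genes of these lists are not reported here by name. Shared sequence was searched with BLAST at 95% identity over 150 bases, and promoter sequences came from RefSeq. Counting error is the only error that the depth limit of 3 counts covers.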

Additional observations from a re-analysis of the deposited data

Results flagged for a closer look

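Rrm2 in M2 (82.8 CPM) and Umps in M6 (96.9 CPM) stood apart from the other tumors, with a gap to the nearest tumor of 0.635 and 0.674 of the whole range, above Dixon's 95% critical value of 0.625 for 6 samples. Of 9 genes tested this way, about 1 in 20, or 0.45 genes, would pass by chance.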

How the results depend on the processing

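Depth was lowest for Tymp, at 2 to 59 counts, and for Dpyd, at 10 to 312 counts. In tumors against islets, 139 of 160 values stayed on their side of the threshold and kept their direction. Members called higher and lower, 0 and 0 with all libraries, were 2 and 1 by DESeq2, 4 and 0 with M6 and NI1 both left out, and 5 and 1 by DESeq2 with NI1 left out. Leaving out each library gave 0 to 5 higher and 0 lower, the 5 with the library labelled NI1 out. Counts over all genes, 0 higher and 40 lower, were 6 and 98 without a filter, 2 and 58 with filterByExpr, 2 and 64 with library totals, 1 and 31 by limma, 4 and 94 in the fit of 3 groups, 764 and 488 by DESeq2, 893 and 520 without M6 and NI1, 1890 and 1003 by DESeq2 without NI1, and 0 to 819 and 6 to 461 with each library left out (819 and 461 without NI1, 80 and 137 without M6, 6 lower without NI3). The replicate numbers did not pair the samples (correlations of deviations -0.052, 0.030 and -0.159, with 0 of 3 functional tumors closest to their own number), and a replicate block gave 0 members and 12 higher and 28 lower genes. The log2 fold change of Mgmt ran from -0.15 without NI2 to 0.33 without NI3 (-0.01 without M1, -0.04 without M4). Between tumor groups, genes higher and lower were 1 and 0 without a filter, 22 and 89 by DESeq2 and 1 and 0 by limma, and 0 members were called in any fit. Signs turned for Mgmt (0.22 with library totals, -0.66 to 0.24 with each library left out), Tyms (-0.00 with RLE scaling and DESeq2, -0.17 to 0.31 with each library left out, -0.17 without M6 and NI1, -0.02 with tumors alone), Tk1 (0.17 with library totals, -0.33 to 0.08 left out in turn), Dut (0.22 with library totals, -0.25 to 0.26 in turn) and Umps (0.05 with library totals, -0.39 to 0.08 in turn, 0.08 without M6 and NI1). The causes were not tested.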
